A study of Rattus norvegicus with 23 samples.

Results

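The BCL2 family of apoptosis regulators was followed in cultured rat brain endothelial cells. The family was taken as 10 named genes (Bcl2l11, Bcl2, Bcl2l1, Mcl1, Bax, Bak1, Bbc3, Pmaip1, Bad and Bid), of which 8 were found by symbol among the 32883 rows of the count table. All 8 passed the low-count filter that kept 13834 genes, and each had 1 row. Mcl1 and Bbc3 were not found under those symbols and were not analysed here.

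The cells were primary brain endothelial cells from co-cultures with pericytes and astrocytes, and each library was made from the endothelial lysate of a single culture insert. The treated groups were OGD/R with DMT and BD1063 (n = 6, below the BD1063 group), OGD/R with DMT (n = 5, the DMT group) and OGD/R alone (n = 6), and the untreated cells were kept in normoxia (n = 6). Libraries are called by group and insert number, as in OGD/R 5 or BD1063 3. OGD/R withholds oxygen and glucose and then gives them back, to imitate stroke in a dish. DMT (N,N-dimethyltryptamine) is a tryptamine that binds serotonin and sigma receptors, and BD1063 is an antagonist of sigma receptors. The sources used here give no doses, times or age of the animals, and no group had BD1063 without DMT or DMT without OGD/R. Nothing says that inserts of a group were seeded from different cell preparations, so the p-values measure only the spread between inserts, which may be technical.

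Proteins of the BCL2 family control the step at which mitochondria release cytochrome c. Antiapoptotic members (BCL2, and BCL-XL from Bcl2l1) hold the effectors BAX and BAK in check. BH3-only members (BIM from Bcl2l11, NOXA from Pmaip1, BAD and BID) bind antiapoptotic members, activate effectors, or both, and so start the release. Much of the family's control lies in protein binding, phosphorylation and breakdown, which RNA counts do not measure, while Bcl2l11 and Pmaip1 are also known for regulation at the RNA level.

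The libraries held 12162759 (DMT 3) to 18565166 (normoxia 1) counted reads, and levels are given in CPM (counts scaled to library size with TMM factors), which are not divided by gene length. The lysates carried endothelial RNA, since the 8 endothelial markers found of 10 listed summed to between 7303 and 8823 CPM over all 23 libraries. The summed level of fibroblast markers (5 found of 6, with Dcn and Lum under 1 CPM) ran from 85.8 to 378 CPM in the BD1063 group, 133 to 381 CPM in the DMT group and 119 to 400.4 CPM in OGD/R, and from 381 to 908 CPM in normoxia. That of pericyte markers (6 found of 6, with Rgs5, Abcc9 and Des under 1 CPM) ran from 4.28 to 13.1 CPM in the BD1063 group, 5.90 to 11.7 CPM in the DMT group and 6.21 to 12.7 CPM in OGD/R, and from 9.0 to 20.7 CPM in normoxia. Of the 7 astrocyte markers, Gja1, which endothelial cells also express, carried nearly all of the sum of 104 to 212 CPM, the other 6 lay under 1 CPM, Slc1a2 was at 0 in the BD1063 group, the DMT group and normoxia, and Aqp4 was at 0 in OGD/R. Microglial and leukocyte markers (6 found of 6) summed to 1.95 to 5.67 CPM in the BD1063 group, 3.85 to 7.70 CPM in the DMT group and 1.37 to 9.47 CPM in OGD/R, and to 1.63 to 3.62 CPM in normoxia. Neuronal and oligodendrocyte markers (4 found of 4 each) summed to at most 3.17 and 5.33 CPM in any library. The part of these other cells in the results was not tested.

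Some libraries stood apart. Ribosomal protein genes took 3.24% of counts in DMT 5 and 3.10% in OGD/R 5, and noncoding RNA took 2.94% in OGD/R 3, against at most 2.36% and 0.339% in the other libraries. Results that rest on these 3 libraries are therefore also given without them.

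In OGD/R against normoxia, 2 of the 8 members fell and 0 rose, at an adjusted p under 0.05. The members that fell were Bcl2l11, the gene of the BH3-only protein BIM, and Bcl2l1, the gene of antiapoptotic BCL-XL. Over all genes tested 35.5% were called in this comparison, 18.9% higher and 16.7% lower, so a count of 2 in 8 was not above the background. Limma voom called 4 of the 8, with Bcl2 and Bak1 higher beside the 2 falls. The median log2 fold change was 0.06 over the 8 members and 0.01 over all genes. With the deposited CPM scaling and limma (log2 of CPM + 1) the split over all genes was 1286 higher and 2336 lower, against 2608 higher and 2308 lower with edgeR.

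In the DMT group against OGD/R, 1 of the 8 members rose and 0 fell, and that member was Bcl2l11. Here 0.492% of all genes were called (68 genes, 0.325% higher and 0.166% lower), and Bcl2l11 ranked 32 of 13834 by p. The median log2 fold change was 0.03 over the members and 0.00039 over all genes. Bcl2l11 was also the 1 of 8 members that rose in the BD1063 group against OGD/R, and 0 fell, where 5.31% of all genes were called (1.86% higher and 3.46% lower). That split was 257 higher and 478 lower genes, and 506 higher and 17 lower with the deposited CPM scaling and limma. The median was 0.05 over the members and -0.01 over all genes. Between the BD1063 group and the DMT group 0 of 8 members were called, 0 also at an unadjusted p under 0.05, and in 0 of 8 were the groups free of overlap (0.911% of all genes). That comparison had 0% of all genes called by edgeR and 1 gene by DESeq2, while 1005 genes (7.26%) had an unadjusted p under 0.05. The medians there were -0.04 over the members and -0.02 over all genes. The number of genes called in the DMT group against OGD/R, 45 higher and 23 lower with edgeR, was 264 by DESeq2 (148 higher and 116 lower) and 729 by limma voom (278 higher and 451 lower), but 4 with the compared groups alone (4 higher and 0 lower) and 5 by limma on the deposited CPM (5 higher and 0 lower). It was 1083 without DMT 5, 453 without OGD/R 3, OGD/R 5 and DMT 5, and as low as 26 without DMT 1, DMT 3 or OGD/R 6. For the BD1063 group against OGD/R it was 76 without BD1063 3 or BD1063 5 and at most 975, without OGD/R 4.

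**Figure D1:**
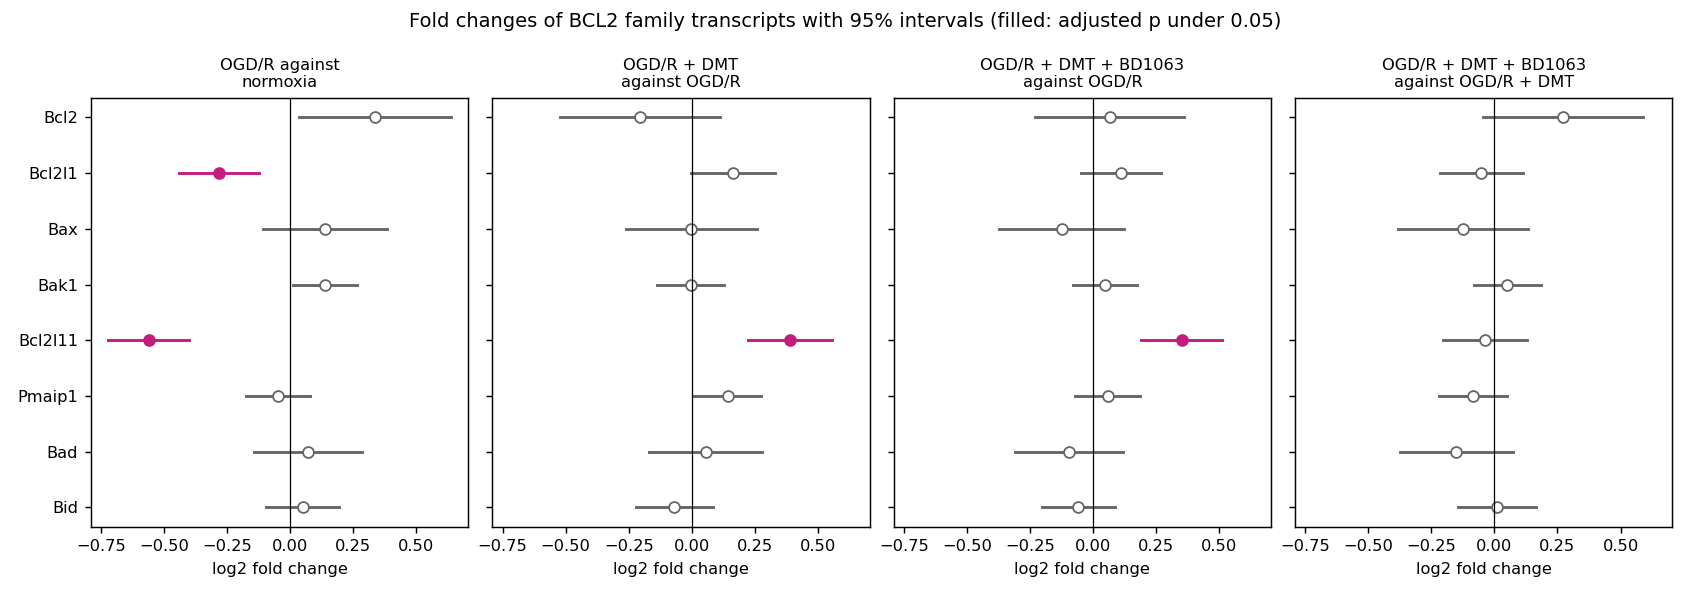
Log2 fold change (x axis) of the 8 BCL2 family transcripts in 4 comparisons, 1 panel each, with lines for 95% intervals from the edgeR fit and filled points for an adjusted p under 0.05. Bcl2l11 is the filled point at -0.56 in OGD/R against normoxia, at 0.39 in the DMT group against OGD/R and at 0.35 in the BD1063 group against OGD/R, Bcl2l1 is filled at -0.28 in the first panel, and no point is filled in the last.

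Bcl2l11 (ENSRNOG00000016551) had the largest difference of the 8 members in OGD/R against normoxia and in both groups with agents against OGD/R. Its promoter is shown because in other cell types FOXO factors are known to drive this gene, and the window holds the letters of a FOXO core. The windows come from RefSeq (build GRCr8, not the build Rnor_6.0 named in the submitters' processing notes) and run from 250 bases before the annotated start to 50 bases after it. GTAAACA was searched on both strands and is not contained in, and does not contain, the other motifs searched (GGGCGG and CACGTG). Capitals mark it in the window of Bcl2l11 (chr3:135819792-135820091, plus strand), where it begins at base -204 on the gene's strand. The window of Bad (chr1:213562864-213563163, plus strand), the only other member's window with a match, holds it on the opposite strand, read as TGTTTAC from base -118.
Bcl2l11: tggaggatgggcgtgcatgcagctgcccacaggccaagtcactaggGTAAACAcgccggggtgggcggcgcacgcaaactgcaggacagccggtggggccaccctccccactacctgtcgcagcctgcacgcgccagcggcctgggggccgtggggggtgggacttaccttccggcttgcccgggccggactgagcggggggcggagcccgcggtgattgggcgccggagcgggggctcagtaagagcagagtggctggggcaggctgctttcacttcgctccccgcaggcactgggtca
Bad: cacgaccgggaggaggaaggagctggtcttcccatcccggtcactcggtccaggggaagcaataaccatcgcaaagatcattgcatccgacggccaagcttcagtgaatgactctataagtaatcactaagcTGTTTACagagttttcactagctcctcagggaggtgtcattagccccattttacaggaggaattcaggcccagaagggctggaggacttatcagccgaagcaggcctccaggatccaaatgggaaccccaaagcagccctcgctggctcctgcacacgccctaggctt

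A window was found for 7 of the 8 members (10 windows in all), Bax being the exception. GTAAACA stood in 1265 of 33469 RefSeq windows of the same length (3.78%). Of the other FOXO targets listed further below, 7 had a window, and 2 of these held GTAAACA (Insr and Pik3ip1). Depp1 and Ccng2 had a window without it. In OGD/R against normoxia Pik3ip1 and Depp1 fell, while Insr was not called. A link between the motif and the levels was not tested. The letters GGGCGG, an SP1-type GC box, stood in the windows of 5 of the 7 members (Bcl2l1, Bak1, Bcl2l11, Pmaip1 and Bid), and in 33.1% of all windows. The member count is per gene and the share is per window. Bcl2l1 had several windows and not all held GGGCGG, so these measures are unlike. CACGTG, the E-box core, stood in 0 of the 7 members' windows and in 6.42% of all windows. These are matches of letters only, with no measurement of binding.

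Bcl2l11 had a lowest, median and highest level of 119, 142 and 150.1 CPM in the BD1063 group. The 5 DMT libraries had 164, 134, 147, 136 and 127 CPM. The lowest, median and highest level was 95.3, 111 and 114 CPM in OGD/R, and 127, 161 and 178 CPM in normoxia. The 6 OGD/R libraries were the 6 lowest of the 23, and they overlapped with none of the other groups, whereas the BD1063 group, the DMT group and normoxia overlapped with each other. The lowest normoxia library, normoxia 5, lay level with the lowest DMT library, DMT 5.

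**Figure D2:**
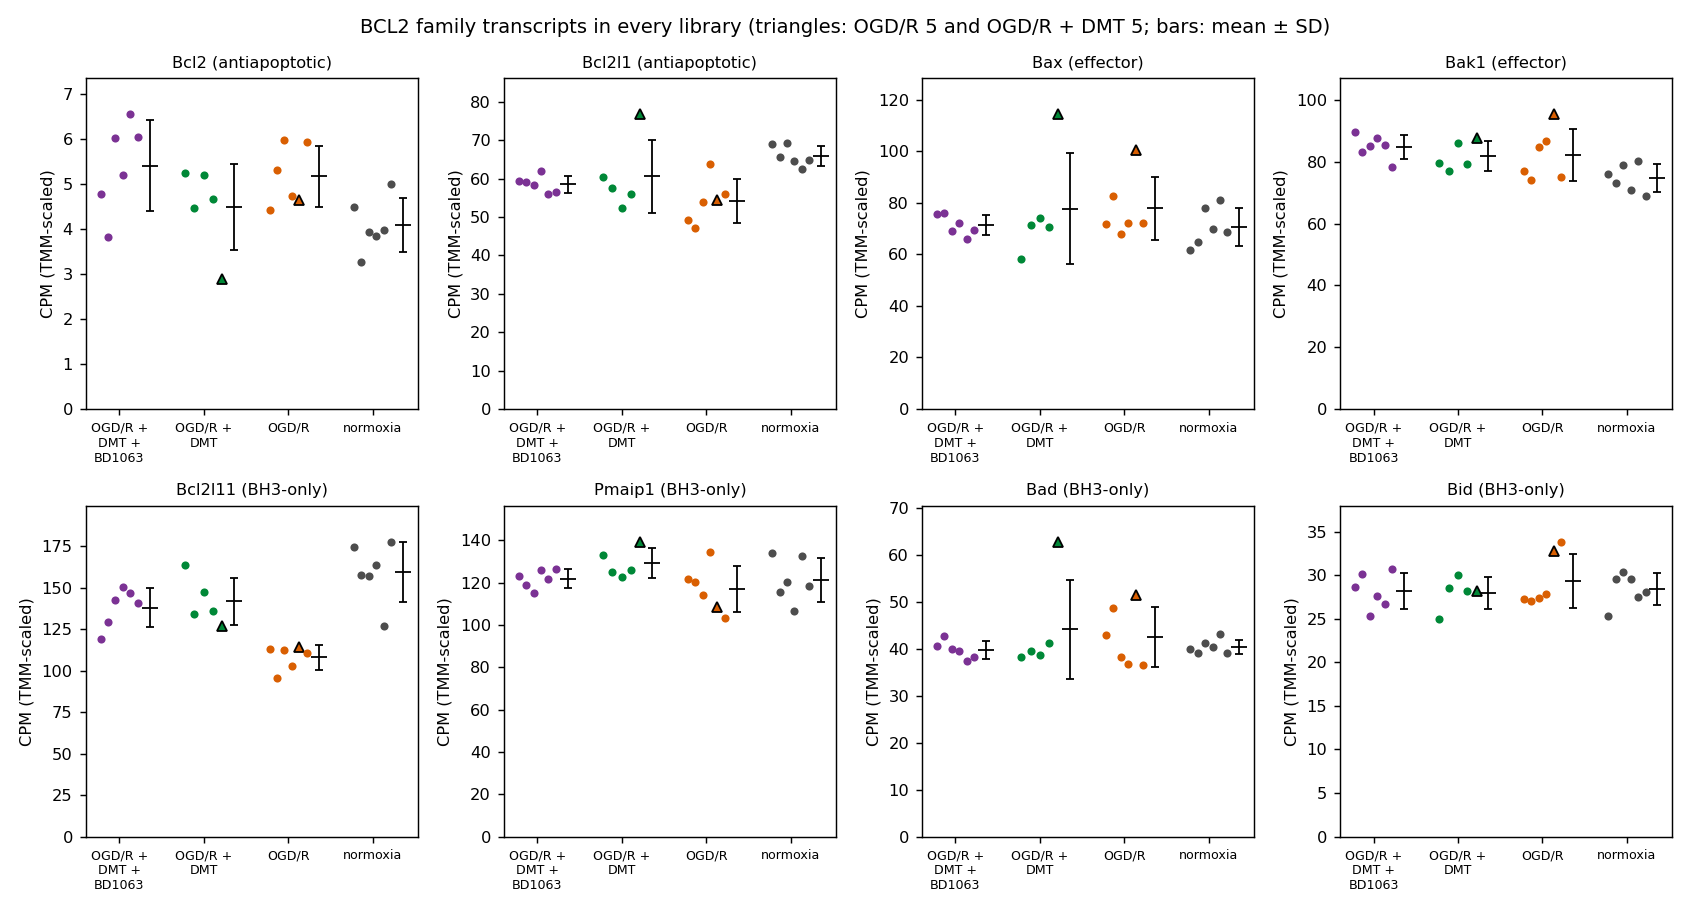
Level of each of the 8 BCL2 family transcripts (y axis, CPM after TMM scaling, from 0) in every library, with 1 panel per gene and groups along the x axis. Points are libraries, triangles mark OGD/R 5 and DMT 5, and bars are mean ± SD. The OGD/R libraries of Bcl2l11 lie at 95.3 to 114 CPM, below all other libraries, and DMT 5 stands at 114.5 CPM of Bax and 62.9 CPM of Bad.

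Bcl2l11 averaged 108 ± 7.56 CPM in OGD/R and 159.6 ± 18.0 CPM in normoxia (SD, n = 6 each). The log2 fold change was -0.56 (SE 0.08, 95% interval -0.72 to -0.40; adjusted p = 5.08e-06), and all 6 OGD/R libraries lay below the normoxia mean. It was the only member whose OGD/R and normoxia libraries did not overlap, a separation found in 16.4% of all genes. Without OGD/R 3, OGD/R 5 and DMT 5 the log2 fold change was -0.61 (adjusted p = 2.60e-06). In bulk lysates, fewer cells of a type and less RNA per cell cannot be told apart.

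With DMT, Bcl2l11 averaged 142 ± 14.4 CPM in the DMT group, against 108 ± 7.56 CPM in OGD/R (SD, n = 5 and n = 6). The rise was 0.39 in log2 units (SE 0.08, 95% interval 0.22 to 0.56; adjusted p = 0.0305), and all 5 DMT libraries lay above every OGD/R library. It was the 1 member of 8 without overlap, against 1.37% of all genes. Without OGD/R 3, OGD/R 5 and DMT 5 it averaged 145 ± 13.6 CPM in the DMT group and 105 ± 8.11 CPM in OGD/R (SD, n = 4 each), and the rise was 0.47 (adjusted p = 0.0117). The call was lost without DMT 1 (0.33, adjusted p = 0.104), DMT 3 (0.38, adjusted p = 0.0914), DMT 4 (0.40, adjusted p = 0.0533), OGD/R 2 (0.36, adjusted p = 0.0710) or OGD/R 6 (0.40, adjusted p = 0.0604). It was also lost when the fit held the compared groups alone (0.40, adjusted p = 0.202) and with limma on the deposited CPM (0.39, adjusted p = 0.246 with a pseudocount of 1 and 0.244 with 0.1).

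With DMT and BD1063 together, Bcl2l11 averaged 138 ± 11.8 CPM in the BD1063 group, against 108 ± 7.56 CPM in OGD/R (SD, n = 6 each), and the rise was 0.35 in log2 units (SE 0.08, 95% interval 0.19 to 0.51; adjusted p = 0.0206). All 6 libraries of the BD1063 group lay above every OGD/R library, a separation seen in 4.78% of all genes. This call was lost without BD1063 3 (adjusted p = 0.0590), BD1063 4 (adjusted p = 0.0513), BD1063 5 (adjusted p = 0.0574) or OGD/R 2 (adjusted p = 0.0549), with log2 fold changes of 0.32 to 0.34. Between the BD1063 group and the DMT group the log2 fold change was -0.04 (SE 0.08, adjusted p = 0.866), with a 95% interval of -0.21 to 0.13.

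Against normoxia, Bcl2l11 in the BD1063 group was lower, at -0.21 in log2 units (SE 0.08, 95% interval -0.37 to -0.05; adjusted p = 0.0468), with all 6 libraries below the normoxia mean but an overlapping range. That call held in 3 of the 12 fits that left out a single library and in 7 of 11 other alternatives. Those 11 include a rerun of the main fit on the same counts. For the DMT group against normoxia the value was -0.17 (SE 0.08, 95% interval -0.34 to -0.0041; adjusted p = 0.132), and it was called without DMT 1 (-0.23, adjusted p = 0.0466) or normoxia 5 (-0.24, adjusted p = 0.0227). The order of the group means was thus OGD/R, BD1063 group, DMT group and normoxia from low to high. Of the neighbours in that order, the BD1063 group and OGD/R passed the threshold. The DMT group beside the BD1063 group did not, nor did normoxia beside the DMT group. The comparisons share libraries: the same 6 OGD/R libraries stand in the fall against normoxia and in both rises against OGD/R.

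The other BH3-only members analysed (Pmaip1, Bad and Bid) were called in none of the 6 comparisons. Pmaip1 (ENSRNOG00000018770), the gene of NOXA, which binds MCL1, had 115, 122 and 126 CPM as the lowest, median and highest level in the BD1063 group and 133, 125, 123, 126 and 139 CPM in the DMT group. In OGD/R it had 103, 117 and 134 CPM, and in normoxia 107, 119 and 134 CPM. The groups overlapped, although all 5 DMT libraries lay above the OGD/R mean, and the log2 fold change between them was 0.14 (SE 0.06, 95% interval 0.0088 to 0.28; adjusted p = 0.375).

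Bad (ENSRNOG00000021147), whose protein survival kinases hold in the cytosol by phosphorylation, had 37.5, 39.7 and 42.7 CPM in the BD1063 group and 38.4, 39.7, 38.7, 41.3 and 62.9 CPM in the DMT group. In OGD/R it had 36.5, 40.7 and 51.5 CPM, and in normoxia 39.1, 40.2 and 43.1 CPM. All groups overlapped, and the high values were those of DMT 5 and OGD/R 5. Without those libraries and OGD/R 3, Bad averaged 39.5 ± 1.31 CPM in the DMT group and 41.3 ± 5.81 CPM in OGD/R (SD, n = 4 each). Bid (ENSRNOG00000012439), which links death receptors to mitochondria once a caspase has cut its protein, had 25.3, 28.2 and 30.7 CPM in the BD1063 group. It had 25.0, 28.6, 30.1, 28.2 and 28.1 CPM in the DMT group, 27.0, 27.6 and 33.9 CPM in OGD/R, and in normoxia 25.4, 28.8 and 30.4 CPM. Bid varied least between groups, with log2 fold changes of -0.07 to 0.05 over the 6 comparisons.

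Of the antiapoptotic genes, Bcl2l1 (ENSRNOG00000007946) had 55.9, 58.7 and 62.0 CPM in the BD1063 group. It had 60.4, 57.6, 52.4, 56.1 and 76.8 CPM in the DMT group, 47.2, 54.2 and 63.9 CPM in OGD/R and 62.4, 65.1 and 69.2 CPM in normoxia. OGD/R 4 was the only OGD/R library within the normoxia range, and DMT 5 lay above every other library of the study. Bcl2l1 averaged 54.1 ± 5.84 CPM in OGD/R and 65.9 ± 2.65 CPM in normoxia (SD, n = 6 each), a change of -0.28 in log2 units (SE 0.08, 95% interval -0.44 to -0.12; adjusted p = 0.00586). Without OGD/R 3, OGD/R 5 and DMT 5 the log2 fold change was -0.30 (adjusted p = 0.00116).

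The log2 fold change of Bcl2l1 in the DMT group against OGD/R was 0.16 (SE 0.08, 95% interval -0.0023 to 0.33; adjusted p = 0.42), and it was 0.07 (adjusted p = 0.596) without the 3 libraries. Its mean was 58.5 ± 2.22 CPM in the BD1063 group, against 65.9 ± 2.65 CPM in normoxia, and the difference was -0.17 in log2 units (SE 0.08, adjusted p = 0.105). The libraries of these groups did not overlap, but the gap between the highest of the BD1063 group (62.0 CPM) and the lowest of normoxia (62.4 CPM) was small, and 18.3% of all genes showed no overlap there. Without the 3 libraries that comparison was called (-0.18, adjusted p = 0.0241), and so was the DMT group against normoxia (-0.22, adjusted p = 0.0157, against -0.12 and adjusted p = 0.306 with all libraries). Leaving out DMT 5 alone also brought the DMT group's difference from normoxia past the threshold (-0.22, adjusted p = 0.0177). RefSeq lists a pseudogene of Bcl2l1, and how reads shared with it were assigned was not given, so its level is uncertain by reads of that copy. The counts also do not tell the long from the short isoform of BCL-X.

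Bcl2 (ENSRNOG00000002791) was the lowest in counts, with 42 to 111 reads per library. It had 3.82, 5.61 and 6.55 CPM in the BD1063 group and 5.24, 4.46, 5.19, 4.66 and 2.88 CPM in the DMT group, 4.42, 5.02 and 5.96 CPM in OGD/R and 3.25, 3.96 and 4.99 CPM in normoxia. The groups overlapped, and DMT 5 was the lowest library of all. Bcl2 averaged 5.40 ± 1.00 CPM in the BD1063 group, against 4.08 ± 0.59 CPM in normoxia (SD, n = 6 each), a rise of 0.40 on the log2 scale (SE 0.14, adjusted p = 0.0426). That call held in 4 of the 12 fits that left out a single library and in 9 of 11 other alternatives. Those 11 include a rerun of the main fit on the same counts. For OGD/R against normoxia the value was 0.34 (SE 0.15, 95% interval 0.03 to 0.64; adjusted p = 0.0772), with all 6 OGD/R libraries above the normoxia mean. With limma voom and sample weights that comparison was called (0.36, adjusted p = 0.0463).

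Of the effectors, Bax (ENSRNOG00000020876) had 66.0, 70.7 and 75.9 CPM in the BD1063 group and 58.3, 71.2, 74.0, 70.7 and 114.5 CPM in the DMT group. It had 68.0, 72.1 and 100.5 CPM in OGD/R and 61.9, 69.2 and 81.2 CPM in normoxia. All groups overlapped, the 2 highest libraries were DMT 5 and OGD/R 5, and Bax was called in none of the 6 comparisons. The log2 fold change was 0.14 in OGD/R against normoxia (SE 0.12, adjusted p = 0.388) and -0.0011 in the DMT group against OGD/R (SE 0.13, 95% interval -0.26 to 0.26). Without the 3 libraries Bax averaged 68.6 ± 7.01 CPM in the DMT group and 74.6 ± 5.28 CPM in OGD/R (SD, n = 4 each). RefSeq lists a pseudogene of Bax as well, and the same uncertainty holds.

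Bak1 (ENSRNOG00000000485) had 78.2, 85.4 and 89.6 CPM in the BD1063 group and 79.5, 77.0, 86.2, 79.3 and 87.8 CPM in the DMT group. It had 74.2, 80.9 and 95.5 CPM in OGD/R and 68.8, 74.6 and 80.3 CPM in normoxia. Normoxia held the lowest libraries, but overlapped with each other group. Bak1 averaged 84.9 ± 3.95 CPM in the BD1063 group, against 74.7 ± 4.57 CPM in normoxia (SD, n = 6 each), a rise of 0.18 on the log2 scale (SE 0.06, 95% interval 0.06 to 0.31; adjusted p = 0.0288). That call held in 7 of the 12 fits that left out a single library and in 11 of 11 other alternatives. Those 11 include a rerun of the main fit on the same counts. For OGD/R against normoxia it was 0.14 (SE 0.06, adjusted p = 0.0853), and it was 0.05 (adjusted p = 0.514) without the 3 libraries.

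Against normoxia, the BD1063 group thus had 3 of 8 members called (Bcl2 and Bak1 higher, Bcl2l11 lower), where 26.3% of all genes were called (13.1% higher and 13.2% lower). The split was 1809 higher and 1827 lower genes, and 1571 higher and 1024 lower with the deposited CPM scaling and limma. The median was -0.0018 over the members and 0.0061 over all genes. The DMT group had 0 of 8 called by edgeR, 1 of 8 at an unadjusted p under 0.05 (Bcl2l11) and 3 of 8 by limma voom (Bcl2l1, Bak1 and Bcl2l11). There 23.7% of all genes were called (12.8% higher and 11% lower), 35.1% had an unadjusted p under 0.05, and in 12.7% the groups did not overlap, against 0 of 8 members. The split was 1765 higher and 1519 lower genes, and 686 higher and 1413 lower with the deposited CPM scaling and limma. The median was 0.11 over the members and 0.02 over all genes. When single libraries were left out, the count in the BD1063 group against normoxia was 0 to 2 of 8. None of the 3 members kept its call in every such fit, with adjusted p-values of up to 0.122 for Bcl2l11, 0.113 for Bcl2 and 0.0784 for Bak1.

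Death-promoting and antiapoptotic transcripts were compared in 3 pairs, as the log2 ratio of read counts within each library. Library scaling cancels in such a ratio but gene length does not, so that only differences between groups can be read. Mcl1 and Bbc3 were not found, so the 3 ratios do not give the balance of the whole family. The ratio of Bcl2l11 over Bcl2l1 was 1.23 ± 0.14 in the BD1063 group, 1.23 ± 0.31 in the DMT group and 1.00 ± 0.17 in OGD/R, against 1.27 ± 0.15 in normoxia (SD). The ratio of Bax over Bcl2l1 was 0.28 ± 0.06 in the BD1063 group, 0.33 ± 0.24 in the DMT group and 0.52 ± 0.28 in OGD/R, against 0.10 ± 0.18 in normoxia. The ratio of Bax over Bcl2 was 3.74 ± 0.36 in the BD1063 group, 4.11 ± 0.70 in the DMT group and 3.91 ± 0.33 in OGD/R, against 4.12 ± 0.27 in normoxia. All groups overlapped in all 3 ratios. DMT 5 had the highest Bax over Bcl2 of the study (5.31), and it had the lowest Bcl2l11 over Bcl2l1 of its group (0.72, where the group's median was 1.28).

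**Figure D3:**
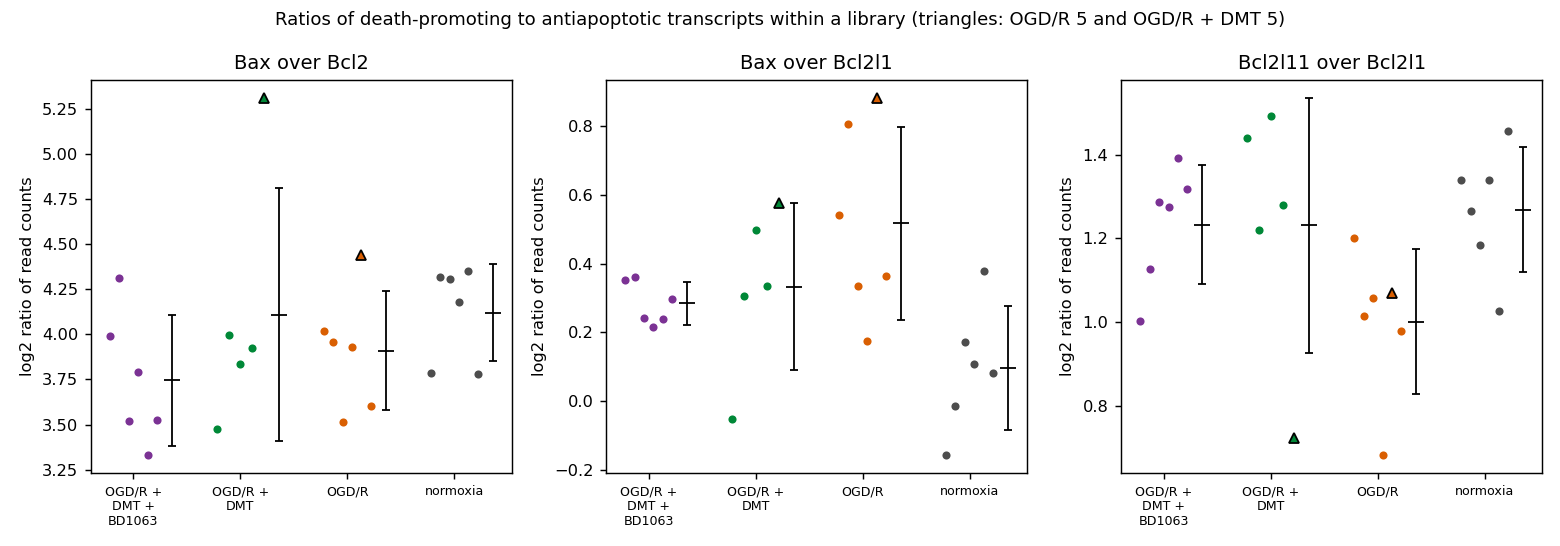
Log2 ratio of read counts (y axis, not starting at 0) of Bax over Bcl2, Bax over Bcl2l1 and Bcl2l11 over Bcl2l1 in every library, by group along the x axis. Points are libraries, triangles mark OGD/R 5 and DMT 5, and bars are mean ± SD; the groups overlap in each panel, and Bcl2l11 over Bcl2l1 averages 1.00 in OGD/R and 1.23 to 1.27 in the other groups.

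Genes around the family were counted in lists by role. These lists were chosen with earlier results of these data known, so counts beside the shares over all genes are descriptions only. Of 13 relatives of the BCL2 family outside the 10 members, 8 could be tested, 4 were too low and 1 (Hrk) was not found by symbol. Among the 8, 3 fell in OGD/R against normoxia and 0 rose, where 16.7% of all genes fell and 18.9% rose. The list median was -0.12 beside the 0.01 of all genes. Bmf, another BH3-only gene, averaged 5.07 ± 0.89 CPM in OGD/R and 9.82 ± 1.3 CPM in normoxia (SD, n = 6 each), a change of -0.95 in log2 units (SE 0.13, adjusted p = 5.19e-06). Bnip3, a mitophagy receptor induced by hypoxia, averaged 99.4 ± 15.6 CPM in OGD/R and 136 ± 19.2 CPM in normoxia, a change of -0.46 (SE 0.09, adjusted p = 0.000558). The third was Bnip3l, the paralog of Bnip3. Against OGD/R, 0 of the 8 were called in the BD1063 group and 0 in the DMT group (list medians -0.06 and 0.0045). Bmf stood at 4.85 ± 0.61 CPM in the BD1063 group and 5.68 ± 1.08 CPM in the DMT group, against 5.07 ± 0.89 CPM in OGD/R. Against OGD/R its log2 fold change was -0.07 (SE 0.14) in the BD1063 group and 0.16 (SE 0.14) in the DMT group, with no call in either.

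Downstream of the family, 2 of 12 tested genes of the apoptosome, the caspases and the proteins that mitochondria release rose in OGD/R against normoxia and 0 fell (list median 0.04), a count not above the 18.9% of all genes that rose. They were Aifm1, a mitochondrial flavoprotein (log2 fold change 0.52, SE 0.07, adjusted p = 1.39e-06), and Cycs, the gene of cytochrome c (0.54, SE 0.13, adjusted p = 0.00202). Aifm1 was the 1 of the 12 called in the BD1063 group against OGD/R, at -0.25 (SE 0.07, adjusted p = 0.0367), and 0 were called in the DMT group, where Aifm1 stood at -0.20 (SE 0.07, adjusted p = 0.193). Of 4 inhibitor of apoptosis genes, Birc3 fell in OGD/R against normoxia (-0.32, SE 0.08, adjusted p = 0.00173; list median -0.30) and 0 rose, where 16.7% of all genes fell. Of 6 tested genes of the death receptor branch (Tnfrsf10b was not found by symbol), the adaptor Fadd rose (0.34, SE 0.07, adjusted p = 0.000737) and the kinase Ripk1 fell (-0.20, SE 0.07, adjusted p = 0.0218; list median -0.0030). With 18.9% of all genes higher and 16.7% lower there, these counts lay near the background. Ripk1 was higher in the BD1063 group than in OGD/R (0.25, SE 0.07, adjusted p = 0.0379). In that comparison 1.86% of all genes rose and 3.46% fell.

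Upstream, 9 factors and enzymes that act on members were tested, of which 1 rose and 2 fell in OGD/R against normoxia (list median -0.11). Over all genes 35.5% were called there (18.9% higher and 16.7% lower), so the count of the list lay near the background. Foxo3, a forkhead factor that can drive Bcl2l11, averaged 11.3 ± 2.11 CPM in OGD/R and 17.2 ± 3.74 CPM in normoxia (SD, n = 6 each), a change of -0.61 in log2 units (SE 0.17, adjusted p = 0.00812). The other that fell was Ddit3, the gene of the stress factor CHOP. Against OGD/R, 0 of the 9 were called in either group with agents. Foxo3 then stood at 16.0 ± 2.44 CPM in the BD1063 group and 13.3 ± 3.67 CPM in the DMT group, against 11.3 ± 2.11 CPM in OGD/R. Its log2 fold change against OGD/R was 0.51 (SE 0.17, adjusted p = 0.0772) in the BD1063 group and 0.24 (SE 0.18, adjusted p = 0.678) in the DMT group. Foxo1, another forkhead factor on the list, averaged 73.0 ± 11.7 CPM in OGD/R and 86.9 ± 20.4 CPM in normoxia. That difference was not called (-0.25, SE 0.17, adjusted p = 0.269). Against OGD/R, Foxo1 stood at 0.28 (SE 0.17) in the BD1063 group and 0.05 (SE 0.18) in the DMT group, with no call. The part of FOXO factors in the level of Bcl2l11 was not tested.

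Of 8 FOXO targets other than Bcl2l11, 5 fell and 0 rose in OGD/R against normoxia (list median -0.44), where 16.7% of all genes fell. The list was chosen with earlier results of these data known, so this count is a description and not independent support. Depp1 averaged 7.94 ± 2.40 CPM in OGD/R and 44.4 ± 5.33 CPM in normoxia (SD, n = 6 each), a change of -2.48 in log2 units (SE 0.17, adjusted p = 1.44e-10). Pik3ip1, whose protein restrains PI3 kinase, averaged 2.40 ± 0.66 CPM in OGD/R and 8.89 ± 0.70 CPM in normoxia, a change of -1.88 (SE 0.16, adjusted p = 5.32e-09). Without OGD/R 3, OGD/R 5 and DMT 5, the number that fell was 4 of 8.

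Ccng2, a cyclin-like gene on the FOXO list, was the 1 gene of the 6 lists called in the DMT group against OGD/R. It averaged 67.3 ± 2.27 CPM in the DMT group and 52.2 ± 4.56 CPM in OGD/R (SD, n = 5 and n = 6), a rise of 0.37 in log2 units (SE 0.06, adjusted p = 0.00782). The median of the FOXO list was 0.14 and those of the other 5 lists ran from -0.09 to 0.12, beside 0.00039 over all genes. Ccng2 was, like Bcl2l11, lower in OGD/R than in normoxia (-0.46, SE 0.06, adjusted p = 3.17e-06). Its level in the BD1063 group was 57.6 ± 3.54 CPM, at 0.14 against OGD/R (SE 0.06, adjusted p = 0.149) and -0.22 against the DMT group (SE 0.06, adjusted p = 0.664). Depp1, the list's largest fall under OGD/R, stood at 6.96 ± 1.4 CPM in the BD1063 group and 7.77 ± 1.13 CPM in the DMT group, against 7.94 ± 2.40 CPM in OGD/R. Between the BD1063 group and the DMT group 0 genes of any of the 6 lists were called.

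**Figure D4:**
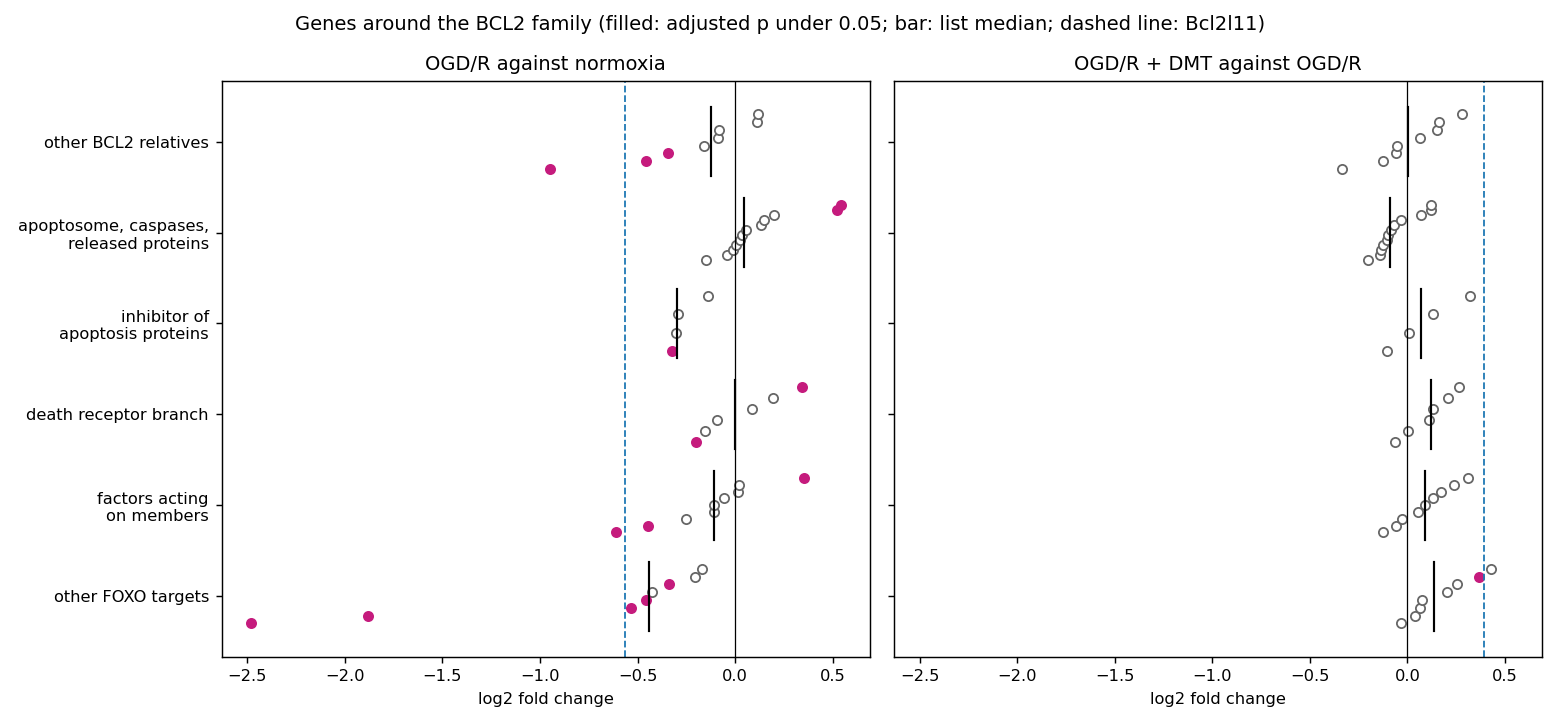
Log2 fold change (x axis) of every tested gene of 6 lists around the family (rows) in OGD/R against normoxia and in the DMT group against OGD/R. Filled points have an adjusted p under 0.05, short bars are list medians and the dashed line is Bcl2l11; in the first panel 5 of 8 FOXO targets are filled, all left of 0, with Depp1 at -2.48, and in the second panel Ccng2 at 0.37 is the only filled point.

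Against normoxia the lists were counted in both groups with agents, which share the 6 normoxia libraries. Of the 8 relatives, 5 fell in the BD1063 group and 2 in the DMT group, where 13.2% and 11% of all genes fell. Bmf stood at -1.02 in log2 units (SE 0.13, adjusted p = 2.62e-06) in the BD1063 group and -0.79 (SE 0.14, adjusted p = 0.000166) in the DMT group, beside Bnip3 at -0.32 in the BD1063 group and Bcl2l2, an antiapoptotic relative, at -0.21 in the DMT group. Of the 12 apoptosome and caspase genes, 3 rose in the BD1063 group (13.1% of all genes rose there) and 2 in the DMT group (12.8% of all genes), so the DMT count lay near the background. Aifm1 stood at 0.28 (SE 0.07, adjusted p = 0.00257) in the BD1063 group and 0.32 (SE 0.07, adjusted p = 0.00127) in the DMT group, beside Cycs at 0.40 in the DMT group. Of the 4 inhibitors of apoptosis, Birc3 (-0.33) and Birc2 (-0.18) fell in the BD1063 group and 0 in the DMT group, beside the same 13.2% and 11% of all genes. Of the 6 tested genes of the death receptor branch, 1 rose in the BD1063 group (Fadd, 0.42), where 13.1% of all genes rose. That count lay near the background. In the DMT group 2 rose (Fadd at 0.28 and the receptor gene Fas at 0.35), where 12.8% of all genes rose.

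Of the 8 FOXO targets, 4 fell in the BD1063 group and 2 in the DMT group, where 13.2% and 11% of all genes fell. The limit given above for the choice of this list holds here as well. Depp1 stood at -2.67 (SE 0.17, adjusted p = 6.66e-11) in the BD1063 group and -2.51 (SE 0.18, adjusted p = 9.54e-10) in the DMT group, and Pik3ip1 at -1.72 (SE 0.16) in the BD1063 group and -1.45 (SE 0.17) in the DMT group.

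The genes whose levels over the 23 libraries lay nearest to Bcl2l11 were Zfp202, Rin2 and Tp53inp2. Likeness was the root mean square difference of log2 CPM after centring each gene, among 9827 genes of at least 4 CPM on average. The differences were 0.10, 0.11 and 0.12, against a median of 0.31 over those genes and a spread of 0.24 of Bcl2l11 itself. In OGD/R against normoxia the log2 fold change was -0.55 for Zfp202, -0.41 for Rin2 and -0.53 for Tp53inp2, beside -0.56 for Bcl2l11. In the DMT group against OGD/R it was 0.30 for Zfp202, 0.20 for Rin2 and 0.32 for Tp53inp2, beside 0.39 for Bcl2l11. Genes nearest to a member were picked over these same libraries, so fold changes near the member's follow from the choice. Nearest to Bcl2l1 were Abhd17c (0.09), Slc2a1 (0.10) and Gpr4 (0.11), against a median of 0.25 and a spread of 0.16 of Bcl2l1. Slc2a1, the glucose transporter of the blood-brain barrier, had a log2 fold change of -0.22 in OGD/R against normoxia and -0.02 in the DMT group against OGD/R, beside -0.28 and 0.16 for Bcl2l1.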

How the data were processed

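Poly-A RNA from 23 endothelial lysates was read as single reads from directional libraries, per the labels' protocols. The deposited gene counts are whole numbers that the authors made from their reads. Without giving roles, the submitters' processing notes list the build Rnor_6.0 and the tools STAR 2.7.10a, RSEM 1.3.3, DESeq2 1.38, cutadapt 3.4 and FastQC 0.11.9. Whether counting used strand is not stated there. A second deposited table, named for TPM by the authors, held CPM-like values: divided by 1 number per library, 100% came out whole within 0.01 reads and equal to the counts, and edgeR on those reads called the same 4916 genes in OGD/R against normoxia. Rows without a symbol numbered 396.

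Counts were tested with edgeR 4.0.16 (R 4.3.3), with TMM scaling, filterByExpr at a minimum count of 10, robust quasi-likelihood fits over all 23 libraries and 4 groups, and Benjamini-Hochberg adjustment over 13834 genes at 0.05, two-sided. Intervals are 95%. Alternatives were DESeq2 1.42.0, limma 3.58.1 (voom with sample weights, or log2 of the deposited CPM + 1 or + 0.1), other filters, the compared groups alone, a replicate block, single libraries left out and, chosen after seeing the data, reads recovered from the CPM and list counts without 3 libraries. Whether libraries with the same number were paired is not stated, and their correlations did not settle it. The text names every member, the 2 called genes with the smallest p per list and comparison, and the 3 genes nearest to each member called in OGD/R against normoxia. Bnip3l, Ddit3 and Foxo1, and Bmf, Foxo3, Aifm1, Ccng2 and Depp1 in further comparisons were added after their values were seen. Some genes that the rule names, and a list, are not reported here. The members and lists were chosen with earlier results of these data known.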

Additional observations from a re-analysis of the deposited data

Results flagged for a closer look

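In 2 of 32 groups of member levels (8 members in 4 groups), 1 library lay far outside the others of its group, by Dixon's criterion, which chance meets in about 1 in 20 groups. Both were DMT 5. Bax stood at 114.5 CPM there, against 58.3 to 74.0 CPM in the other DMT libraries, and Bad stood at 62.9 CPM, against 38.4 to 41.3 CPM. The same library had the lowest Bcl2 (2.88 CPM) and the highest Bcl2l1 (76.8 CPM) of its group, and 3.24% of its counts lay in ribosomal protein genes, against 1.84% to 2.0% in the other DMT libraries. The part of that share in the levels of Bax and Bad was not tested.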

How the results depend on the processing

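The fall of Bcl2l11 and of Bcl2l1 in OGD/R against normoxia kept its call in every alternative run (adjusted p at most 6.16e-05 and 0.0188). The rise of Bcl2l11 in the DMT group against OGD/R kept its direction throughout but lost its call without 5 of the 11 libraries, one at a time, with the compared groups alone (0.40, adjusted p = 0.202) and with limma on the deposited CPM (0.39, adjusted p = 0.246 with a pseudocount of 1 and 0.244 with 0.1). It was called with DESeq2 (adjusted p = 0.00149) and voom (adjusted p = 0.00297). The 3 calls of the BD1063 group against normoxia depended on single libraries. Depth limits Bcl2 most (42 to 111 reads per library). The deposited CPM scaling moved the median of all genes in the BD1063 group against OGD/R to 0.10 (pseudocount 1) and 0.11 (0.1), from -0.01, and relative to that median Bcl2l11 stood at 0.37 and 0.36. Causes of these changes were not tested.

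With single libraries left out, genes called numbered 4153 to 5250 in OGD/R against normoxia, 26 to 1083 in the DMT group against OGD/R (1083 without DMT 5), 0 to 0 in the BD1063 group against the DMT group, 76 to 975 in the BD1063 group against OGD/R (76 without BD1063 3 or BD1063 5), 2696 to 3489 in the DMT group against normoxia and 3134 to 3573 in the BD1063 group against normoxia. Members called numbered 2 to 3 in OGD/R against normoxia, 0 to 1 in the DMT group against OGD/R, 0 to 0 in the BD1063 group against the DMT group, 0 to 1 in the BD1063 group against OGD/R, 0 to 1 in the DMT group against normoxia and 0 to 2 in the BD1063 group against normoxia.

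In the DMT group against OGD/R, genes called were 264 with DESeq2, 729 with voom, 37 with no filter, 4 with the compared groups alone, 5 with limma at either pseudocount and 453 without OGD/R 3, OGD/R 5 and DMT 5, and members called were 0 with the compared groups alone and with limma. In the BD1063 group against OGD/R, genes called were 1297 with DESeq2, 1650 with voom, 257 with no filter, 1500 with the compared groups alone, 487 with limma at 0.1 and 1471 without the 3 libraries. In the BD1063 group against the DMT group DESeq2 called 1 gene. In the DMT group against normoxia, limma called 2099 genes at a pseudocount of 1 and 2058 at 0.1, and members called were 3 with voom and 1 without the 3 libraries. In the BD1063 group against normoxia voom called 5886 genes, and 1 member was called with no filter and with limma at 0.1. In OGD/R against normoxia voom called 4 members. Without the 3 libraries, falls among FOXO targets in OGD/R against normoxia were 4 and rises of apoptosome genes 3.

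With the replicate block, 37 genes were called in the DMT group against OGD/R. There Bcl2l11 kept its rise (0.40, adjusted p = 0.0379), while in OGD/R against normoxia Bak1 was called (0.14, adjusted p = 0.0378) and Bcl2l11 in the BD1063 group against normoxia was not (-0.21, adjusted p = 0.0511). Whether same-numbered libraries were paired is not stated, and the correlations do not settle it. Deviations went together (correlation over 0.1) in 3 of 6 same-numbered pairs in OGD/R against normoxia. They did so in 3 of 5 pairs in the DMT group against OGD/R and 4 of 5 in the DMT group against normoxia. Each other comparison had 1 to 3 such pairs, and none had all. In no comparison did every library correlate best with its own number. The highest correlation was of a same-numbered pair in the DMT group against OGD/R (0.70, against at most 0.56 for other pairs). In each other comparison it was of a pair with different numbers.

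All member values that changed sign under an alternative were not called, before or after. With voom the values were 0.00083 (Bak1) and -0.046 (Bad) in the DMT group against OGD/R, 0.053 (Bcl2l1), 0.028 (Bax) and -0.00067 (Bid) in the BD1063 group against the DMT group, -0.0034 (Bad) in the DMT group against normoxia. With no filter the values were 0.0050 (Bax) and 0.0018 (Bak1) in the DMT group against OGD/R. With the replicate block it was -0.0099 (Bid) in the BD1063 group against the DMT group. With the compared groups alone the values were 0.0051 (Bax) and 0.0019 (Bak1) in the DMT group against OGD/R. With limma on the deposited CPM + 1 the values were -0.016 (Bad) and -0.029 (Bid) in OGD/R against normoxia, 0.0067 (Bak1) in the DMT group against OGD/R, 0.069 (Bcl2l1), 0.022 (Bax), 0.072 (Bcl2l11) and 0.025 (Pmaip1) in the BD1063 group against the DMT group, 0.0032 (Bax), 0.032 (Bad) and 0.059 (Bid) in the BD1063 group against OGD/R, 0.016 (Bad) and 0.029 (Bid) in the BD1063 group against normoxia. With limma on the deposited CPM + 0.1 the values were -0.017 (Bad) and -0.031 (Bid) in OGD/R against normoxia, 0.0070 (Bak1) in the DMT group against OGD/R, 0.070 (Bcl2l1), 0.022 (Bax), 0.073 (Bcl2l11) and 0.025 (Pmaip1) in the BD1063 group against the DMT group, 0.0036 (Bax), 0.034 (Bad) and 0.062 (Bid) in the BD1063 group against OGD/R, 0.016 (Bad) and 0.031 (Bid) in the BD1063 group against normoxia. Without OGD/R 3, OGD/R 5 and DMT 5 the values were 0.046 (Bak1) and -0.058 (Bad) in the DMT group against OGD/R, 0.049 (Bcl2l1), 0.058 (Bax) and 0.011 (Bad) in the BD1063 group against the DMT group, -0.050 (Bax) and -0.042 (Bad) in the DMT group against normoxia. With single libraries left out, those that changed sign ran from -0.0018 to 0.11 (Bad) in OGD/R against normoxia, -0.11 to 0.12 (Bad), -0.032 to 0.042 (Bak1) and -0.18 to 0.086 (Bax) in the DMT group against OGD/R, -0.20 to 0.011 (Bad), -0.21 to 0.058 (Bax), -0.10 to 0.048 (Bcl2l1), -0.075 to 0.019 (Bcl2l11) and -0.027 to 0.040 (Bid) in the BD1063 group against the DMT group, -0.036 to 0.17 (Bad), -0.044 to 0.23 (Bax) and -0.052 to 0.017 (Bid) in the DMT group against normoxia and -0.023 to 0.060 (Bax), -0.042 to 0.018 (Bid) and -0.028 to 0.039 (Pmaip1) in the BD1063 group against normoxia.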
